A study of Homo sapiens with 6 samples.

Results

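Glutathione, thioredoxin and NADPH supply the reducing power with which a cell removes peroxides, repairs oxidised proteins and detoxifies quinones. Glutathione is made from glutamate, cysteine and glycine, and glutamate-cysteine ligase carries out the first and limiting step. Oxidised glutathione and oxidised thioredoxin are both reduced again with electrons from NADPH, much of which comes from the pentose phosphate pathway. Many genes of these systems are targets of the transcription factor NRF2, which binds antioxidant response elements together with small MAF proteins.

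The 9 genes described here were chosen by name, by their gene symbols in the deposited table: GCLC, GCLM, GSR and GPX4 of the glutathione system, TXN, TXNRD1 and SRXN1 of the thioredoxin system, and NQO1 and PGD, which use and produce NADPH. They are 9 of 58735 genes in that table, and they were chosen with earlier results of these data known. Polyadenylated RNA had been sequenced from AZ-521 cells treated for 48 h with 10 µM platycodon D (PD), a saponin from the root of Platycodon grandiflorus, or with DMSO alone, with 3 samples in each group. The labels give all samples as wild type and of stomach, and the stated aim was to explore how the compound acts against gastric cancer cells. AZ-521 is a single established line, which the labels call a gastric cancer cell, although cell banks now record its origin as a duodenal carcinoma. Separate cultures are not stated for the replicates, so each p-value rests on the spread among these samples, and that spread may be technical. In the authors' values, given as FPKM (fragments scaled to gene length and to sequencing depth), the gut transcription factors GATA6 and CDX2 lay between 41.6 and 49.6 FPKM and between 0.979 and 1.44 FPKM in PD samples, against 35.2 to 38.9 FPKM and 1.01 to 1.59 FPKM in DMSO samples. Of 14 markers of gastric and intestinal epithelium 9 stayed under 0.1 FPKM in all 6 samples, among them CDH1 and HNF4A, so the epithelial label was not borne out by most of these genes. KRT18 and KRT19 were listed at 0. The leukocyte and endothelial markers summed to at most 0.325 and 0.0686 FPKM in PD samples, against 0.0345 and 0.0073 FPKM in DMSO samples. Of 6 fibroblast markers only COL3A1 and LUM reached 1 FPKM, and COL1A1, COL1A2, DCN and PDGFRB stayed under it in all 6 samples. The list summed to between 50.5 and 51.9 FPKM in PD samples, against 54.1 to 64.9 FPKM in DMSO samples, and most of that was COL3A1.

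Reads over genes, recovered from the FPKM values and the gene lengths, numbered 15328454, 15401415 and 15821524 in the PD samples and 14915538, 15505311 and 16341687 in the DMSO samples. PD replicate 3 and DMSO replicate 1 stood apart from the other libraries on the second principal component, which held 18.9% of the variance. The deviation of a gene from its group mean was set beside the GC content of its transcript, with Spearman rho = 0.61, 0.02 and -0.52 in PD replicates 1 to 3 and -0.64, 0.46 and 0.54 in DMSO replicates 1 to 3 (across genes, which are not independent replicates). The relation was negative in the 2 samples that stood apart, and of like size in the other direction in 3 of the others. Deviations from a group mean cancel within the group, so a negative relation in a sample brings positive ones among the others of its group. Results are given with and without these 2 libraries where their omission changed a call or moved a value by more than 1.5 times.

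Antioxidant response element cores were looked for in the promoters of these genes, since NRF2 acts through them. RefSeq promoter sequences on build GRCh38.p14, running from 250 bases before to 50 bases after the start site, were at hand for 8 of the 9 genes, with more than one start for GPX4 and TXNRD1. The core TGACNNNGC, read on both strands, occurred in windows of 3 of these 8 genes, GCLM, TXNRD1 and PGD. For comparison, 16.1% of all genes with such windows had at least one match, and 13.3% of the 35116 windows held one. The GCLM match ended 26 bases before the start site, and the PGD match lay 193 to 201 bases before it. For TXNRD1 the match lay 91 to 99 bases before the first start and 94 to 102 bases before the second, and a further match began 8 bases before the first start. The sequences below give each match that lies wholly before its start site in capitals, with 10 bases on either side. The further match at the first TXNRD1 start reaches the start site and is neither printed nor compared. The sequences run 5′ to 3′ on the strand of the gene, in order to show how far the flanks resemble each other. With these flanks the stretches span chr1:93909446-93909474 (minus strand) for GCLM, chr12:104215670-104215698 and chr12:104286920-104286948 (plus strand) for TXNRD1, and chr1:10398853-10398881 (plus strand) for PGD. Distances are to RefSeq starts, which differ from the gene spans of the deposited values. The span of PGD there begins at 10398592, so its match lies inside that span, as does the match at the second TXNRD1 start. The span of GCLM ends at 93909456, within its printed stretch.
GCLM: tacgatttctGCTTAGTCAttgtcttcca
TXNRD1 first start: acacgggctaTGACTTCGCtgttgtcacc
TXNRD1 second start: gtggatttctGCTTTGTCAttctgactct
PGD: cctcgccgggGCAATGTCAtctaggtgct
With the matches turned to the same strand, the GCLM window and that at the second TXNRD1 start were identical at 19 of 29 bases, 11 of them in the 20 flanking bases. The other pairs were identical at 9 to 13 of 29 bases, 3 to 7 of them in the 20 flanking bases. The fixed letters of the core are the same in every pair because the search required them. The AP-1 letters TGANTCA, which share their TGA with this core, occurred in 0 of the 8 genes and in 9.37% of all genes. A match is a description of letters and not of binding, and the search covered this window alone.

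The order of the 9 genes by level was the same in both groups (per length, mean FPKM). GPX4 and TXN were highest, followed by TXNRD1, PGD, GSR, GCLM, GCLC and SRXN1, and NQO1 was lowest. GPX4 and TXN overlapped in their sample ranges in PD cells, and TXNRD1 and PGD overlapped in DMSO cells. All other neighbours in that order were separated within each group. The summed level of the 3 thioredoxin genes was 171 ± 19.3 FPKM in PD cells and 104 ± 3.79 FPKM in DMSO cells (SD, n = 3 each), and that of the 4 glutathione genes was 156 ± 17.3 FPKM in PD cells and 122 ± 7.69 FPKM in DMSO cells. Most of the glutathione sum was GPX4, whose groups overlapped, at 116 ± 14.1 FPKM in PD cells and 93.2 ± 6.81 FPKM in DMSO cells. In bulk RNA, more expressing cells and more RNA per cell cannot be told apart.

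**Figure D1:**
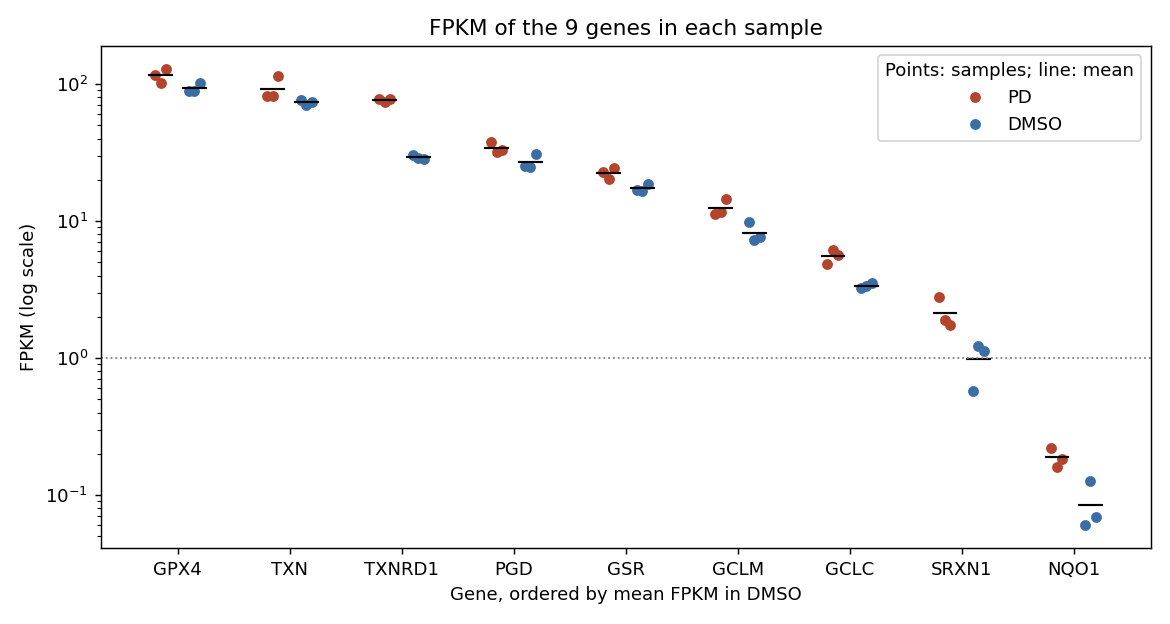
FPKM (log axis) of each of the 9 genes in each of the 3 PD and 3 DMSO samples, with the group mean as a line and the filter of 1 FPKM dotted. TXNRD1 stands between 74.4 and 78.3 FPKM in PD samples, against 28.1 to 30.2 FPKM in DMSO samples, and NQO1 lies under the filter in all samples.

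Of the 9 genes, 8 reached 1 FPKM in at least 3 samples and were tested, 7 of them at or above it in all 6 samples and SRXN1 in 5. GCLC, GCLM, GSR, TXNRD1 and SRXN1 rose in PD cells at an adjusted p under 0.05 in limma, 0 fell, and GPX4, TXN and PGD did not pass. Over all 13579 genes tested 14.3% rose and 12.7% fell by the same rule, 27.1% in either direction (1947 and 1731 genes). The scaling of the deposited values raises PD values relative to DMSO values, as described with the processing. With equal FPKM totals in all samples, which moved the median of all genes to -0.13, 1290 genes rose and 3158 fell, and 3 of the 8 rose. With quantile normalisation 1831 genes rose and 2088 fell, with upper quartile scaling 1790 and 2009, and 5 of the 8 rose in each. In 7 of the 8 genes every PD sample lay above every DMSO sample, which was so for 22.5% of all genes tested. The median log2 fold change on the log2(FPKM + 1) scale was 0.45 for the 8 genes and 0.00 for all genes tested. Since the genes were chosen with earlier results known, these shares and medians describe them and do not test them as a set. TXNRD1 alone was at least 2-fold higher on that scale, whose pseudocount of 1 makes changes of low genes look smaller, as were 2.84% of all genes tested. The number of the 8 genes that rose was 4 without DMSO replicate 1 and PD replicate 3, and 2 or 3 when any single sample was left out, which also leaves fewer samples for the test.

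TXNRD1, the selenoprotein that reduces cytosolic thioredoxin with NADPH (ENSG00000198431, chromosome 12, 104215779 to 104350305 on GRCh38, plus strand), changed most. It stood at 78.3, 74.4 and 77.4 FPKM in PD replicates 1 to 3, against 30.2, 29.1 and 28.1 FPKM in DMSO replicates 1 to 3. All PD samples lay far above all DMSO samples, and the samples within each group differed little. The PD mean was 2.63 times the DMSO mean, a log2 fold change of 1.37 ± 0.08 (SE) with a 95% interval from 1.18 to 1.55 (adjusted p = 9.09e-05 in limma). It ranked 166th from the top among the 13579 genes tested and passed in all 19 fits, at 1.21 to 1.40. The pair of promoter windows with a core match, shown above, belong to this gene, but the table gives a single value per gene and does not divide the reads between the starts. RPL18AP3, a processed pseudogene inside the gene's span on the same strand, averaged 70.8 FPKM in PD cells and 69.8 FPKM in DMSO cells and shared 0 exonic bases with TXNRD1.

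TXN, the small disulfide-reducing protein that TXNRD1 keeps reduced (ENSG00000136810, chromosome 9, 110243811 to 110256640, minus strand), had 81.1, 81.1 and 113.8 FPKM in PD samples, against 77.0, 70.1 and 73.5 FPKM in DMSO samples. Replicate 3 of PD was well above the other PD samples, which were themselves just above the DMSO samples. TXN had a log2 fold change of 0.30 ± 0.14 with an interval from -0.03 to 0.64 (adjusted p = 0.159 in limma), and TXN passed in 0 of 19 fits. Without PD replicate 3 it was 0.14, and 0.17 without both that library and DMSO replicate 1. It was 0.14 with equal FPKM totals and 0.19 with quantile normalisation. The 7 pseudogene copies of TXN in the table reached at most 0.430 FPKM in any sample.

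The TXNRD1 to TXN ratio of FPKM was 0.965, 0.917 and 0.680 in PD samples, against 0.392, 0.415 and 0.383 in DMSO samples. All PD ratios lay above all DMSO ratios, with a log2 difference of 1.09. In an exact two-sided permutation test over samples p was 0.1, the smallest that 3 against 3 samples can give, and 0.2 adjusted over the 4 ratios compared. The TXNRD1 to GSR ratio, which sets the reductases of thioredoxin and glutathione beside each other, averaged 3.41 ± 0.237 in PD cells and 1.68 ± 0.156 in DMSO cells, a log2 difference of 1.02 with the same exact p of 0.1.

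SRXN1, sulfiredoxin, which restores over-oxidised peroxiredoxins (ENSG00000271303, chromosome 20, 646615 to 653370, minus strand), was low. It had 2.78, 1.88 and 1.76 FPKM in PD samples, from 115, 78 and 71 reads, and 0.579, 1.22 and 1.13 FPKM in DMSO samples, from 24, 56 and 54 reads. The groups did not overlap, and DMSO replicate 1 was the lowest sample. On the log2 scale PD exceeded DMSO by 0.67 ± 0.19 (adjusted p = 0.0357 in limma), and by 1.14 with voom on recovered reads, which adds no pseudocount of this size. SRXN1 failed the threshold with no filter on low values (adjusted p = 0.108), without DMSO replicate 1, 2 or 3 (adjusted p = 0.0688, 0.0532 and 0.0667), without PD replicate 1 or 2 (adjusted p = 0.107 and 0.0781) and with equal FPKM totals (0.0623), and it passed without DMSO replicate 1 and PD replicate 3 together (0.0459). Another annotated gene on the same strand, AL121758.1, shares 2292 of the 2698 exonic bases of SRXN1 (85.0%) and averaged 0.153 FPKM in PD cells and 0.265 FPKM in DMSO cells. No source used here says how the authors counted reads in that shared stretch, so the level of SRXN1 is uncertain.

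GCLC, the catalytic subunit of glutamate-cysteine ligase (ENSG00000001084, chromosome 6, 53497341 to 53616970, minus strand), had 4.90, 6.10 and 5.60 FPKM in PD samples, against 3.26, 3.36 and 3.50 FPKM in DMSO samples. The DMSO samples lay close together, and every PD sample was above them. GCLC rose by 0.58 ± 0.10 on the log2 scale (adjusted p = 0.00666 in limma), and it passed in all 18 fits that tested it, at 0.44 to 0.71. GCLM, the modifier subunit that makes the enzyme more active (ENSG00000023909, chromosome 1, 93885205 to 93909456, minus strand), had 11.2, 11.7 and 14.6 FPKM in PD samples, against 9.79, 7.31 and 7.59 FPKM in DMSO samples. The groups did not overlap, but DMSO replicate 1 came near the lowest PD sample. GCLM rose by 0.55 ± 0.14 on the log2 scale (adjusted p = 0.0265 in limma). It did not pass with no filter on low values (adjusted p = 0.0738), without DMSO replicate 2 or 3 (adjusted p = 0.0869 and 0.0862), or without PD replicate 2 or 3 (0.0649 and 0.0573), and it passed without DMSO replicate 1 and PD replicate 3 together (0.00673).

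The GCLM to GCLC ratio was 2.27 ± 0.343 in PD cells and 2.45 ± 0.479 in DMSO cells (SD, n = 3 each), so the modifier exceeded the catalytic subunit per length in every sample. The log2 difference was -0.10 (exact two-sided permutation p = 0.7), within the spread of the replicates, and its sign turned without DMSO replicate 1 (0.05) or PD replicate 2 (0.01). Without DMSO replicate 1 and PD replicate 3 together the log2 difference was -0.05. FPKM divides by all annotated exonic bases, 8646 for GCLC with its 15 annotated transcripts and 5420 for GCLM with 4, so the ratio of the levels depends on that choice of length while its difference between groups does not.

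GSR, which reduces oxidised glutathione with NADPH (ENSG00000104687, chromosome 8, 30678061 to 30727999, minus strand), had 22.9, 20.4 and 24.4 FPKM in PD samples, against 16.9, 16.5 and 18.7 FPKM in DMSO samples. Every PD sample was above every DMSO sample by a small margin. The rise was 0.36 ± 0.10 on the log2 scale (adjusted p = 0.0334 in limma). GSR failed the threshold with no filter on low values (adjusted p = 0.0631), without DMSO replicate 1, 2 or 3 (adjusted p = 0.0636, 0.115 and 0.0572), without PD replicate 1 or 3 (0.094 and 0.0736), or without DMSO replicate 1 and PD replicate 3 together (0.0746). With equal FPKM totals it stood at 0.20 (adjusted p = 0.125).

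GPX4, the selenoenzyme that reduces lipid hydroperoxides in membranes with glutathione (ENSG00000167468, chromosome 19, 1103926 to 1106791, plus strand), was the most abundant of the 9 transcripts per length. It had 116.8, 101.0 and 129.2 FPKM in PD samples, against 89.6, 88.9 and 101.0 FPKM in DMSO samples. PD replicate 2 and DMSO replicate 3 were at the same level, so the groups overlapped. The log2 fold change was 0.30 ± 0.12 with an interval from 0.03 to 0.57 (adjusted p = 0.0898 in limma), and GPX4 passed in 0 of 19 fits. It stood at 0.19 without DMSO replicate 1 and PD replicate 3 or with array weights, 0.17 with quantile normalisation and 0.14 with equal FPKM totals.

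PGD, the pentose phosphate enzyme that makes NADPH from 6-phosphogluconate (ENSG00000142657, chromosome 1, 10398592 to 10420144, plus strand), had 37.5, 32.1 and 32.8 FPKM in PD samples, against 25.4, 24.7 and 31.0 FPKM in DMSO samples. DMSO replicate 3 came close to the lower PD samples. PGD was higher by 0.33 ± 0.11 on the log2 scale without passing (adjusted p = 0.0702 in limma), and it passed without DMSO replicate 3 (0.0484), with voom on recovered reads (0.0496) and after GC correction (0.0427). The log2 difference was 0.17 with equal FPKM totals (adjusted p = 0.31).

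NQO1, a quinone reductase that uses NADH or NADPH and is widely used as a readout of NRF2 (ENSG00000181019, chromosome 16, 69706996 to 69726951, minus strand), was nearly undetected. It had 0.220, 0.160 and 0.185 FPKM in PD samples, from 11, 8 and 9 reads, against 0.060, 0.126 and 0.0696 FPKM in DMSO samples, from 3, 7 and 4 reads. Every PD value was above every DMSO value, yet the gene stayed under the filter in all 6 samples and was not tested in the comparison. Its 28 PD reads and 14 DMSO reads gave a ratio of 2.19 after scaling as deposited, with a 95% exact interval from 1.12 to 4.50 that covers counting error only. With no filter, the adjusted p was 0.151 in limma on log2(FPKM + 1) and 0.232 with voom on recovered reads.

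**Figure D2:**
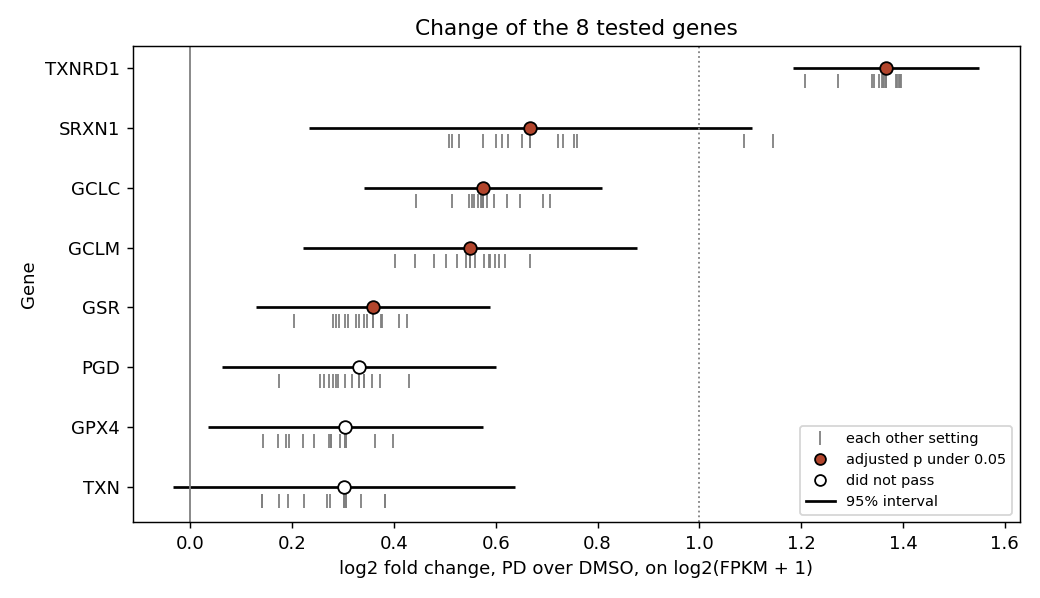
Log2 fold change of PD over DMSO on log2(FPKM + 1) for the 8 tested genes, with its 95% interval, filled where the adjusted p was under 0.05. Grey ticks give the estimate under each other setting (voom on the scale of log2 reads), and TXNRD1 alone stays above 1 under all of them.

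**Figure D3:**
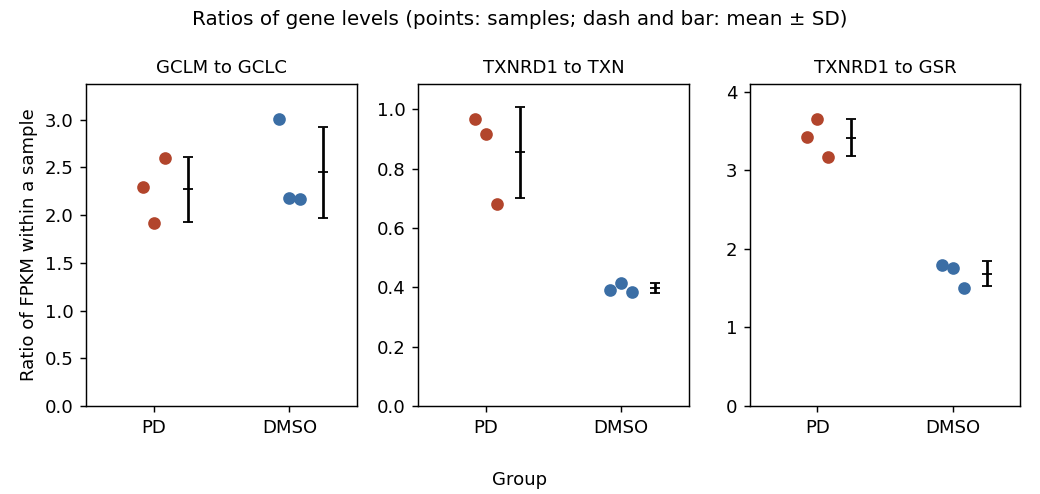
Ratios of FPKM within each sample for 3 gene pairs, with the mean and SD of 3 samples per group, on axes that start at 0. The TXNRD1 ratios to TXN and to GSR are separated between PD and DMSO samples, and the GCLM to GCLC ratios overlap.

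The other enzymes of these systems included genes that rose and genes that fell, and their counts stand beside the 14.3% and 12.7% of all genes tested that rose and fell. A list on NADPH production and supply holds enzymes that make NADPH, other than PGD, with further enzymes of their pathways and the kinases that make NADP. Of its 17 tested genes 0 rose and 8 fell, with a median log2 fold change of -0.11. ALDH1L2, a mitochondrial folate enzyme that yields NADPH, fell to 11.3 ± 0.690 FPKM in PD cells, against 23.3 ± 2.01 FPKM in DMSO cells (SD, n = 3 each; adjusted p = 0.000771 in limma). IDH2, the mitochondrial NADP-dependent isocitrate dehydrogenase, had 5.37, 5.32 and 6.12 FPKM in PD samples, against 8.95, 9.25 and 10.6 FPKM in DMSO samples (log2 fold change -0.68, adjusted p = 0.00343). NADK2, the mitochondrial kinase that makes NADP, stood at 3.56 ± 0.423 FPKM in PD cells and 6.21 ± 0.951 FPKM in DMSO cells (adjusted p = 0.00904). The others that fell, picked with their values known, were the cytosolic isocitrate dehydrogenase IDH1, the pentose phosphate enzyme PGLS, the transhydrogenase NNT and the folate enzymes MTHFD2 and MTHFD1L, with log2 fold changes between -0.59 for MTHFD2 and -0.33 for NNT. The count that fell was 7 without DMSO replicate 1 and PD replicate 3, but 5 when PD replicate 1 or 2 or DMSO replicate 2 or 3 was left out, and 9 with equal FPKM totals.

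In the thioredoxin and peroxiredoxin list 1 of 19 tested genes rose and 7 fell, with a median of -0.33. The gene that rose was PRDX1, the cytosolic peroxiredoxin that thioredoxin reduces, at 74.6 ± 9.16 FPKM in PD cells and 49.1 ± 2.36 FPKM in DMSO cells (adjusted p = 0.00863 in limma). It lies outside the rule for named genes and was picked with its value known, as was TXNRD2. The other thioredoxin reductases did not rise with TXNRD1. TXNRD3, expressed above all in testis, had 1.90, 1.69 and 2.05 FPKM in PD samples, against 3.76, 3.49 and 3.51 FPKM in DMSO samples, and fell (log2 fold change -0.67 ± 0.10, adjusted p = 0.00349). The mitochondrial TXNRD2 had 3.94 ± 0.318 FPKM in PD cells and 5.42 ± 0.778 FPKM in DMSO cells without passing (adjusted p = 0.051). TXNIP, which binds and inhibits thioredoxin, had 0.234, 0.449 and 0.497 FPKM in PD samples, against 1.42, 1.76 and 2.00 FPKM in DMSO samples. It passed the filter through the DMSO samples alone and so had to differ, and without it 6 of 18 tested genes fell, with a median of -0.27. NXN, a thioredoxin-like protein, fell by 0.59 on the log2 scale (adjusted p = 0.0125), but did not pass without PD replicate 2 (0.0535). With TXNIP counted, the number that fell was 10 without DMSO replicate 1 and PD replicate 3, 2 without PD replicate 2, 4 without DMSO replicate 3 and 13 with equal FPKM totals.

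In glutathione synthesis, transport and turnover 4 of 18 tested genes rose and 4 fell, with a median of -0.13. CHAC1, a cytosolic enzyme that degrades glutathione, had 11.2, 10.1 and 11.3 FPKM in PD samples, against 24.1, 33.6 and 37.4 FPKM in DMSO samples, and fell (log2 fold change -1.44 ± 0.16, adjusted p = 0.00122 in limma). CBS, which starts the route from homocysteine to cysteine, fell to 2.27 ± 0.343 FPKM in PD cells, against 5.54 ± 2.25 FPKM in DMSO cells (adjusted p = 0.0198), but did not pass without PD replicate 2 (0.0725) or with no filter on low values (0.0708). GGT1, which cleaves extracellular glutathione, rose to 2.30 ± 0.611 FPKM in PD cells, against 1.04 ± 0.207 FPKM in DMSO cells (adjusted p = 0.0212), but did not pass without PD replicate 1 (0.0588) or 2 (0.0538) or DMSO replicate 3 (0.0524), or with no filter on low values (0.0717). Its log2 fold change of 0.68 was 1.06 with a pseudocount of 0.1 and 1.11 with voom. The transporters SLC3A2, ABCC1 and ABCC2 also rose, and like GSS and SLC7A11 they were picked with their values known. SLC3A2, a chain of the cystine transporter, averaged 188 ± 4.04 FPKM in PD cells and 138 ± 2.45 FPKM in DMSO cells (adjusted p = 0.00725). GSS, which completes glutathione, averaged 18.5 ± 1.09 FPKM in PD cells and 15.4 ± 0.472 FPKM in DMSO cells (adjusted p = 0.0623). SLC7A11, the transport chain that works with SLC3A2, averaged 82.2 ± 8.86 FPKM in PD cells and 105.6 ± 17.0 FPKM in DMSO cells (adjusted p = 0.1002), so neither passed. The number that fell was 9 with equal FPKM totals, 5 without DMSO replicate 1 and PD replicate 3, 1 without PD replicate 2 and 2 without DMSO replicate 2.

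Among glutathione-using enzymes 3 of 15 tested genes rose and 2 fell, beside 14.3% and 12.7% of all genes tested. The risers were GLRX2 and GLRX3, both glutaredoxins, and the transferase GSTO1, by 0.50, 0.45 and 0.43 on the log2 scale (adjusted p = 0.0366, 0.0278 and 0.0474 in limma). With equal FPKM totals, or with no filter on low values, 0 rose. None of these 3 passed without PD replicate 2 (0.106, 0.0781 and 0.0844), DMSO replicate 2 (0.0988, 0.0922 and 0.136) or DMSO replicate 3 (0.115, 0.0843 and 0.126). GLRX2 and GSTO1 also did not pass without PD replicate 3 (0.0832 and 0.0741), nor GSTO1 without PD replicate 1 (0.0579). The number that fell was 0 without PD replicate 2 or DMSO replicate 1 or 3, and 1 without PD replicate 1 or DMSO replicate 2. The list had 3 that rose and 2 that fell also without DMSO replicate 1 and PD replicate 3. A further 15 genes of this list lay under the filter.

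Other NRF2 target genes gave 9 that rose and 3 that fell of 22 tested, beside 14.3% and 12.7% of all genes tested. Of those that rose 5 were at least 2-fold higher, as were 2.84% of all genes tested. The largest changes were those of HMOX1, SQSTM1 and FTH1 (log2 fold change 2.30, 1.94 and 1.93). PRDX1 rose in this list too, since the lists share members. As many rose with equal FPKM totals (9), and likewise 9 without DMSO replicate 1 and PD replicate 3. The count that fell was 4 without those libraries and 5 with equal FPKM totals, and 1 without PD replicate 1 or 2 or DMSO replicate 3. A further 13 of the 35 listed genes lay under the filter, as NQO1 did. Among them ME1, AKR1B10 and CES1 were listed at 0 in all 6 samples, and MGST1 averaged 0.0030 FPKM in PD cells and 0.0026 FPKM in DMSO cells, all picked with their values known.

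**Figure D4:**
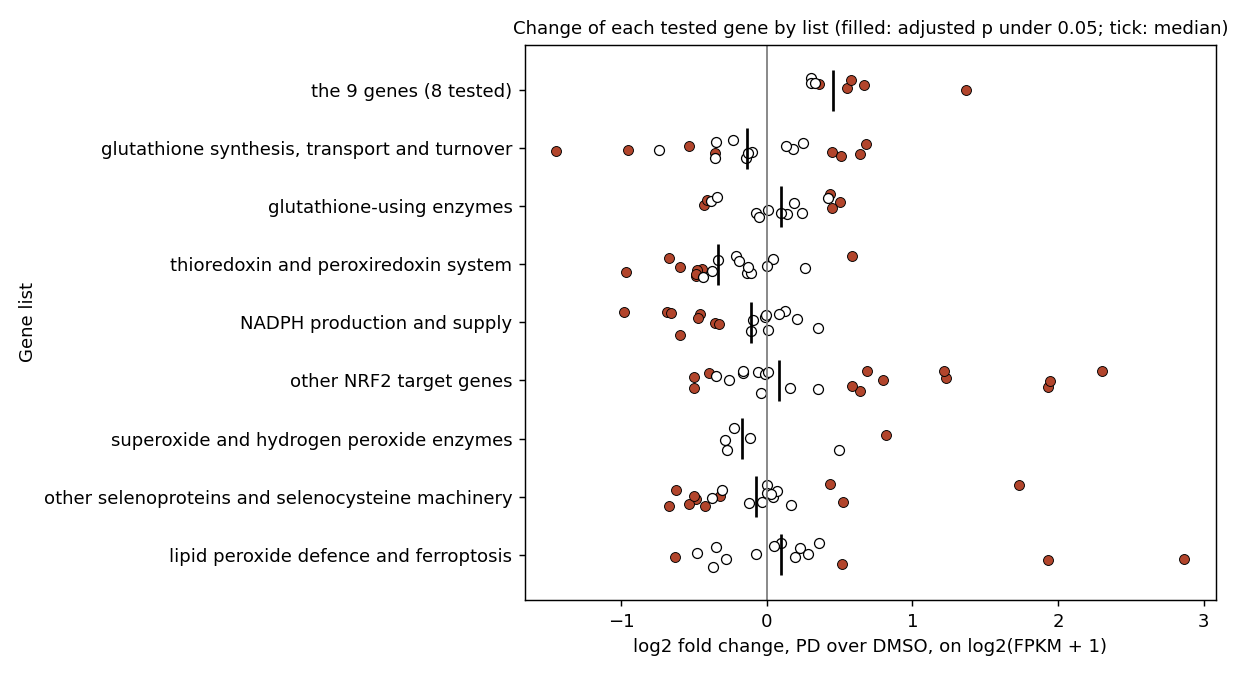
Log2 fold change of PD over DMSO for each tested gene, by list, filled where the adjusted p was under 0.05, with the list median as a tick. The 8 tested genes of the first row all lie above 0, while 8 genes of NADPH production and supply and, with TXNIP counted, 7 of the thioredoxin and peroxiredoxin list fell.

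Genes whose profile over the 6 samples was nearest to that of TXNRD1, by the root mean square difference of centred log2(FPKM + 1) values among protein-coding genes, were WNT9A, TNFRSF10D, ANKRD1, KLF6 and NEU1, at differences of 0.05 to 0.07. Their log2 fold changes lay between 1.27 for TNFRSF10D and 1.43 for KLF6. For TXN, the tested gene with the smallest change, the nearest were B2M, MRPS22, SLC38A6, TMEM126A and CREM, at 0.04 to 0.06, none of which passed the test (adjusted p = 0.0985 to 0.211 in limma). The profiles hold the difference between the groups, so fold changes like those of TXNRD1 and TXN follow from how these genes were picked.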

How the data were processed

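The authors deposited one table of FPKM values per gene and sample with gene lengths, per the file headers. A stranded mRNA kit and paired-end sequencing were used, per the labels' protocols. Aligner, counter and use of strand: not given in the sources used here. Mouse builds (GRCm38, mm10) are named in the submitters' processing notes, but all 58735 gene identifiers and coordinates are those of human GENCODE release 29 (GRCh38). Columns were matched to samples by group prefix and final number, and 27 gene names turned into dates were looked up again by identifier.

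FPKM times length came in whole steps, fixed within a sample, for 100% of values (tolerance 0.01), which gave whole reads. The implied FPKM denominators were 0.947 to 1.00 times the reads over genes in PD samples and 1.03 to 1.10 times in DMSO samples, so the deposited values carry a scaling of unstated origin. A smaller denominator gives a higher FPKM for the same reads, so this scaling raises PD values relative to DMSO values. Voom on recovered reads used the same denominators as library sizes and carries this scaling too.

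Genes with at least 1 FPKM in at least 3 samples (13579) were compared as log2(FPKM + 1) with limma 3.58.1 in R 4.3.3 (two-sided moderated test, mean-variance trend, Benjamini-Hochberg adjustment over all genes tested). "Rose" and "fell" mean an adjusted p under 0.05, the labels' threshold, and the labels' 2-fold criterion is given apart. The fit was also run on simulated reads with a single dispersion for all genes and no GC effect. That run cannot show how the fit behaves under the GC differences between these libraries. Other settings were a pseudocount of 0.1, no filter, a mean of 5 FPKM, other scalings, array weights, no trend, the replicate block, voom on recovered reads and omission of samples. The GC correction (loess, span 0.3, longest transcript), and for the ratios also the omission of both libraries that stood apart, were added after the data were seen. Members and lists were chosen with earlier results of these data known. Named besides the members were up to 3 genes per list with the largest change among those that passed, or the highest where fewer than 2 passed, and the 5 nearest profiles of the members that changed most and least. Lists on superoxide enzymes, selenoproteins and lipid peroxides are described among the other observations. Of 4 ratios between genes that were compared, 1 is not reported here.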

Additional observations from a re-analysis of the deposited data

How the results depend on the processing

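Across 18 other settings, 30 named genes gave 530 fold changes, of which 0 changed direction, 59 were no longer past the threshold and 11 newly passed. Of the 9 genes described, 2 to 3 rose without any single sample, 2 with no filter, 3 at a mean of 5 FPKM (where GCLC and SRXN1 were not tested) and 3 with equal FPKM totals, against 5. A single one was 2-fold higher, or 2 with a pseudocount of 0.1 and with voom, SRXN1 being the addition. With equal FPKM totals the median of all genes moved to -0.13, so that 1290 genes rose and 3158 fell, 247 of them 2-fold lower, against 1947 and 1731 as deposited. The numbers that rose and fell were 1254 and 960 at a mean of 5 FPKM and 3189 and 3112 with array weights. With no filter 1075 fell, and 2928 fell after GC correction. Without DMSO replicate 1 and PD replicate 3 together 2402 rose and 2156 fell, with 4 of the 9 genes among those that rose. Single omissions gave 1144 to 1877 that rose and 859 to 1657 that fell. Genes 2-fold higher and 2-fold lower numbered 386 and 133, but 626 and 336 with a pseudocount of 0.1, 227 and 77 at a mean of 5 FPKM and 667 and 374 with voom. The log2 difference of the GCLM to GCLC ratio lay between -0.208 and 0.0517 over single omissions and was 0.00571 after GC correction. For these changes the cause was not tested, beyond the fewer samples or genes of some settings.

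Deviations of samples with the same replicate number correlated at -0.39, 0.17 and -0.16, and 1 of 3 PD samples correlated best with its own number. These deviations also went with GC content, so they cannot show whether samples of equal number shared a culture or a day. The numbers were not taken as pairs in the main fit. With the replicate block 1089 genes rose and 755 fell, and 2 of the 9 genes, GCLC and TXNRD1, still passed (adjusted p = 0.0361 and 0.00506), while GCLM, GSR and SRXN1 did not (0.0798, 0.0804 and 0.105). Read counts were lowest for NQO1, at 3 to 11 a sample, and for SRXN1, at 24 to 115, so counting error was largest for these.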

Other observations

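GPX4 and TXNRD1 carry selenocysteine, which is inserted by a dedicated machinery. Among 20 other tested genes of selenoproteins and that machinery 3 rose and 7 fell in PD cells (adjusted p under 0.05 in limma), against 14.3% and 12.7% of all genes tested. DIO3, a deiodinase that inactivates thyroid hormone, had 2.73, 2.08 and 2.38 FPKM in PD samples, against 0.031, 0 and 0.027 FPKM in DMSO samples. DIO3 passed the filter through the PD samples alone and so had to differ, and without it 2 of 19 rose and 7 fell. EEFSEC, the elongation factor for selenocysteine, fell to 2.32 ± 0.581 FPKM in PD cells, against 4.07 ± 0.366 FPKM in DMSO cells (SD, n = 3 each; adjusted p = 0.0212 in limma), but did not pass without DMSO replicate 2 or 3 (0.071 and 0.0683) or with no filter on low values (0.0678). TXNRD3 fell as well. With DIO3 counted, leaving out DMSO replicate 1 and PD replicate 3 gave 3 and 8, while 3 fell without PD replicate 2 or DMSO replicate 2 or 3, and 1 rose without DMSO replicate 2.

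Of 6 tested enzymes of superoxide and hydrogen peroxide metabolism 1 rose and 0 fell (adjusted p under 0.05 in limma), beside 14.3% and 12.7% of all genes tested. PRXL2A, a peroxiredoxin-like protein, had 17.0, 14.2 and 16.0 FPKM in PD samples, against 9.28, 8.07 and 8.10 FPKM in DMSO samples (log2 fold change 0.82, adjusted p = 0.00181 in limma). SOD1, the cytosolic superoxide dismutase, averaged 28.5 ± 2.27 FPKM in PD cells and 34.5 ± 1.60 FPKM in DMSO cells without passing (adjusted p = 0.065), and its copper chaperone CCS did not pass either (0.0783). The number that rose was 2 without PD replicate 3, with or without DMSO replicate 1. With equal FPKM totals, where 3158 of all 13579 genes tested fell, 3 of the 6 fell, SOD1 and CCS among them (0.0107 and 0.0313). Both also passed with array weights (0.0126 and 0.0243) and after GC correction (0.0208 and 0.0156), and SOD1 with quantile normalisation (0.0153) and upper quartile scaling (0.0324).

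In the lipid peroxide and ferroptosis list 3 of 15 rose and 1 fell, beside 14.3% and 12.7% of all genes tested. COQ2, an enzyme of ubiquinone synthesis, fell to 5.85 ± 0.528 FPKM in PD cells, against 9.59 ± 0.597 FPKM in DMSO cells (adjusted p = 0.00402 in limma). The largest rises were those of TFRC and FTH1, which take up and store iron (log2 fold change 2.87 and 1.93). Leaving out DMSO replicate 1 and PD replicate 3 gave 5 and 3, 2 rose without PD replicate 2 or DMSO replicate 2 or 3, 2 fell without DMSO replicate 1, and 4 fell with equal FPKM totals.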
